A study of Homo sapiens with 17 samples.

Results

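The intergenic sites far from annotated genes were the listed polymerase positions more than 10000 bp from every GENCODE release 29 gene on either strand of chromosomes 1 to 22, called distal sites here. The rule used only positions and the annotation, and no measured time. It found 2429 distinct sites (position and strand) among 149498 distinct autosomal sites, and among 158141 over all chromosomes. Time-variant precision run-on sequencing had been done in HEK293 cells, an established human embryonic kidney line, with run-on for 0.5, 2, 8 or 32 min. The run-on buffer either held sarkosyl, a detergent that removes many chromatin-bound proteins, or was free of it, and each combination had replicates 1 and 2, giving 16 libraries. No treatment, genotype change or age is given for these libraries, and 1 further sample labelled as a treatment was not analysed here. The deposited values form 4 tables, called series, 1 per buffer and replicate, in which a time was fitted to each site from the libraries of all run-on times. The unit of the time is not given in the sources used here and the read depth is unknown. Where 4 values stand in a row below, they are sarkosyl replicate 1, sarkosyl replicate 2, sarkosyl-free replicate 1 and sarkosyl-free replicate 2. The series held 929, 796, 1204 and 765 distal sites. Sarkosyl-free replicate 2 stood apart from the others, with a median time of 8.26 over the autosomal sites outside the rule against 1.36 to 2.23. Several results that rest on it are therefore also given without it.

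Run-on sequencing records where engaged RNA polymerases sit, whether or not the RNA they make is stable or annotated. Transcription between genes is known from enhancers and unannotated promoters, where RNA polymerase II often starts in both directions from one nucleosome-free region, and from read-through past the 3′ ends of genes. RNA polymerase III transcribes the short tRNA genes from promoters inside the gene (the A and B boxes), and stops at runs of T on the non-template strand.

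The label "intergenic" was checked against RefSeq genes on the same build. GENCODE release 29 as used here holds 0 genes of type tRNA on the autosomes. Of the 2429 distinct distal sites, 454 (18.7%) lay within 300 bp of a RefSeq tRNA gene, against 1.29% of the other autosomal sites. A share of 27.7% lay inside a RefSeq gene of any kind. A further 276 sites (11.4%) formed a single stretch on chromosome 5, downstream of the long intergenic non-coding RNA gene LINC02226. The 1699 others are called the remaining distal sites, of which 56.2% were also over 10000 bp from every RefSeq gene. This split into tRNA neighbourhoods, the chromosome 5 stretch and the remaining sites was made after the values were seen, so its classes are described without a test. Among genes known for HEK293 cells, 3 of 6 (LIN28B, NEFL and VIM) had a listed site in every series, the list summed to 15 to 30 sites a series, and PAX2 and NEFM had none. Of 6 genes of blood cells 5 had no site, and PTPRC had 1 site in sarkosyl replicate 2. The liver genes ALB, APOB and AFP had none.

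The letters at the sites could be read where a site fell in a RefSeq promoter window (GRCh38.p14, 250 bases before to 50 after a gene's start). On the strand of the site, the base at the listed position was C or G at 34 of 39 distal sites (87.2%) and at 98.0% of 11789 other sites. At the next base downstream the share was 35.9% and 48.9%. The 5 distal sites with another base had T, and 3 of those lay near a tRNA gene. These windows cover few distal sites, and the genome sequence around the rest was not used here.

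Stretches from the named regions on chromosomes 13 and 20 that such windows cover are shown because they carry repeated sites. Both are read 5′ to 3′ on the minus strand, where all the sites in them lie, and capitals mark the bases at which a distal site was listed in at least 1 series.
chr13:94549630-94549732 (tRNA-Phe gene TRF-GAA1-5): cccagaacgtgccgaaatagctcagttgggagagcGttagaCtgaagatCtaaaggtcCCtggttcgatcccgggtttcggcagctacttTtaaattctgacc
chr20:30513922-30514092 (pseudogene LOC110467526): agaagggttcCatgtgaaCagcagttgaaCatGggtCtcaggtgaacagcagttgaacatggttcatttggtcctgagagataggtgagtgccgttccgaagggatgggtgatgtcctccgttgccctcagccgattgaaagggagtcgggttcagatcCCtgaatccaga

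In the chromosome 13 stretch, 5 of the 6 capitals lie inside the tRNA gene (94549650 to 94549722) and 1, the T at position 94549642, lies 8 bp past it in a run of 4 T. The letters GTTCGANNC, the core of the B box, occur once, on the minus strand at 94549662 to 94549670. The paired C are at 94549673 and 94549674, just upstream of those letters. At 94549673 the sarkosyl series had times of 0.531 and 0.692, followed by 0.370 in sarkosyl-free replicate 2, and its neighbour 94549674 had 0.206 in sarkosyl-free replicate 1. The T past the gene had 7.46, 4.17, 0.995 and 3.33, longer than the times of those 2 sites in each of the 4 series. The G at 94549697, inside the gene and listed in 1 series, had 6.13 in sarkosyl-free replicate 1, longer than the T there. Over all RefSeq promoter windows 0.833% hold GTTCGANNC on either strand, and of the 25 windows with a distal site 2 do. The second is that of LOC124901292 on chromosome 6, next to the tRNA-Ile gene TRI-AAT8-1. There too a distal site, at 27668702 on the plus strand, fell on a T, 46 bp from the gene, with times of 1.82 in sarkosyl replicate 1 and 16.4 in sarkosyl-free replicate 2. Of the other motifs searched on both strands, the GC box GGGCGG was in 18 of the 25 windows against 44.9% of all windows. The TATA box TATAAA was in 2 of them (11.6% of all), the NF-Y letters CCAAT in 4 (34.6%), the ETS letters CCGGAAG in 4 (10.2%), and TTTT in 16 (71.4%). The AP-1 letters TGANTCA and the CRE letters TGACGTCA were in none of them, against 7.72% and 1.84% of all windows. The 25 windows are not separate places. Overlapping windows are those of NBPF8, of DCT and LOC124903191, of SIPA1L2 and LOC124904551, and of PPARGC1A and LOC124900681. These matches describe the letters only.

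The chromosome 20 stretch falls in the promoter window of the plus-strand RefSeq long non-coding RNA gene LOC105379481 (30514055 to 30531183), and spans its start. All the sites in the stretch lie on the opposite strand. Among them, the C at 30514056 was listed in all 4 series, with times of 0.852, 1.47, 1.21 and 0.910. The C at 30513933 had 0.533 and 0.756 with sarkosyl and 0.559 in sarkosyl-free replicate 2. Other capitals belonged to 1 buffer: the G at 30514060 had 5.13 and 5.88 without sarkosyl only, and the C at 30514063 had 1.69 and 1.25 with sarkosyl only. Sites a few bases apart therefore differed in time within this stretch. It lies in a pseudogene, and how reads shared with any copies of it were assigned is not given in the sources used here. Its single sites are therefore uncertain.

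Distal sites lay at a median of 17077, 17082, 17786 and 18252 bp from the nearest GENCODE gene. Those over 50000 bp away made up 13.7%, 13.2%, 16.4% and 16.2%, and the farthest was 3486773 bp away. Sites up to 500 bp beyond the threshold of 10000 bp had median times of 1.14, 1.14, 0.682 and 3.75 (62, 56, 81 and 44 sites), and those up to 500 bp short of it 1.41, 1.25, 1.30 and 6.65 (48, 41, 57 and 38 sites). Relative to the nearest gene, 39.6% of distinct sites were on its strand and downstream of it, and each of the 3 other placements held 19.3% to 21.7%. Among the remaining sites the share downstream on the same strand was 31.6%.

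Chromosomes 5 and 6 held the most distal sites in every series. Chromosome 5 had 19.5%, 23.4%, 13.1% and 15.8% of them and chromosome 6 had 16.6%, 12.1%, 18.7% and 13.7%. No other chromosome passed 8% in any series. On chromosome 6, 63.6% of the listed distal sites lay within 300 bp of a tRNA gene. On chromosome 19, 41.5% of the distinct distal sites lay within 1000 bp of the SNAR genes, small non-coding RNA genes in near-identical copies. How reads shared between such copies were assigned is not given in the sources used here, so single tRNA and SNAR genes are uncertain.

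**Figure D1:**
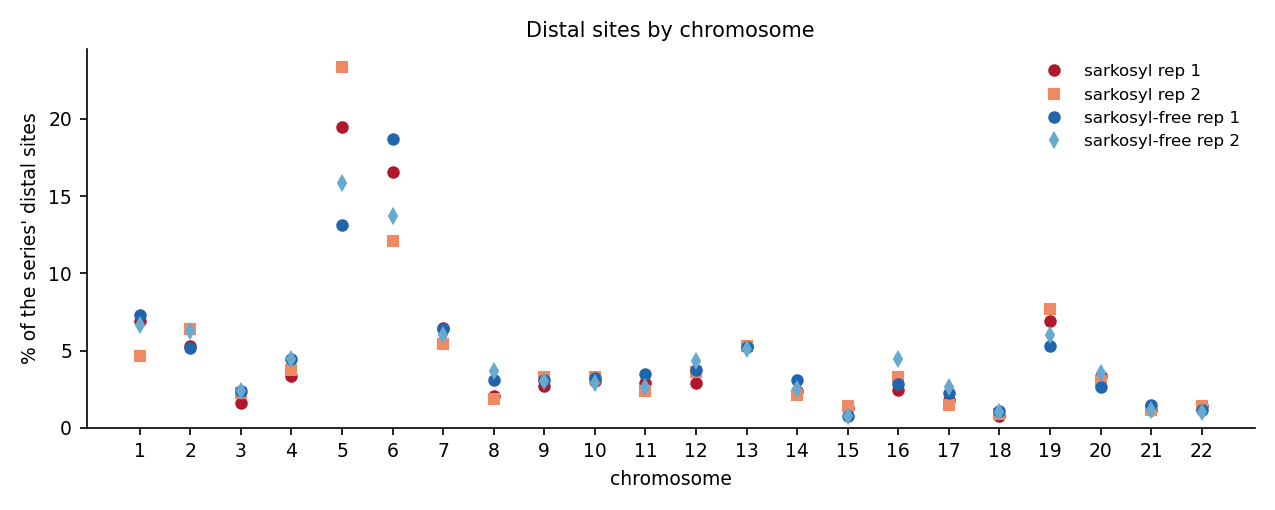
Share of each series' distal sites by chromosome (x axis, chromosome; y axis, percent of the distal sites of the series; 1 symbol per series). Chromosome 5 (13.1% to 23.4%) and chromosome 6 (12.1% to 18.7%) stand above the rest in all 4 series.

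Clustering was first described by joining distal sites of all series that lay within 1000 bp on either strand. This gave 1063 regions, of which 709 (66.7%) held a single site, and 537 of those had been listed in 1 series only. At the other end, 27 regions with 10 or more sites held 641 sites (26.4%), and 19 of the 27 were within 300 bp of a tRNA gene. Sites were found in all 4 series in 199 regions and in 1 series in 567.

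Within a series, a site was counted as clustered when another site lay within 500 bp on the same strand. That held for 57.9%, 55.2%, 48.8% and 48.1% of distal sites and for 58.5%, 53.6%, 48.0% and 43.0% of other autosomal sites. The difference was -0.608, 1.52, 0.773 and 5.06 percentage points, with a mean of 1.68 ± 2.41 (SD, n = 4) and p = 0.25 in a two-sided exact sign-flip permutation test, whose smallest value with 4 series is 0.12. The members were uneven: all but a few sites of the chromosome 5 stretch (96.1% to 100%) and 76.4% to 89.7% of those near tRNA genes were clustered, but 39.8%, 37.2%, 30.1% and 31.3% of the remaining sites. Leaving out both sets, and the sites near tRNA genes among the other sites, turned the difference to -18.1, -15.9, -17.1 and -11.1 points, a mean of -15.6, so the direction rests on them. It also turned with the width of the window, to a mean of -15.1 points with 5000 bp. For comparison, 24.7% to 32.6% of sites deep in introns of coding genes (over 1000 bp from any annotated transcript start) and 54.8% to 69.6% of sites in lincRNA genes were clustered.

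The region with the most sites was chr5:8308638-8323475, with 276 distinct sites, all on the minus strand. The series listed 134, 143, 103 and 97 of them, and 29 were in all 4 series. No plus-strand site was listed there in any series. Neighbouring sites were a median of 22 bp apart and at most 875 bp. The stretch began 10006 bp past the annotated 3′ end of LINC02226 (ENSG00000245729.2, chr5:8333481-8457558, minus strand), and its start was set by the distance rule, not by the data. Upstream of the rule's limit the same strand held 94, 92, 63 and 74 sites from 0 to 5000 bp past the gene's end and 75, 84, 47 and 58 from 5000 to 10000 bp. From 10000 to 15000 bp there were 82, 88, 59 and 66, from 15000 to 20000 bp 45, 50, 35 and 28, and from 20000 to 25000 bp 7, 5, 9 and 3. Listed sites thus continued across the limit and were few beyond 20000 bp. Inside the gene the series listed 46, 51, 23 and 31 sites, all of them in the last 5000 bp before its 3′ end and 0 in the rest of it.

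Pausing times along this stretch had medians of 1.69, 1.30, 1.70 and 1.52. From 10000 to 15000 bp past the gene the medians were 1.48, 1.27, 1.43 and 1.90, and from 15000 to 20000 bp they were 2.33, 1.52, 1.70 and 1.26. The farther bin was higher in 3 of 4 series and lower in sarkosyl-free replicate 2. Across the sites of the stretch shared by a pair of series, Spearman's rho of the times was 0.718 between the sarkosyl series (83 sites) and 0.496 between the sarkosyl-free series (60 sites). Between buffers it was 0.0850, -0.260, -0.109 and -0.328, over 45, 42, 38 and 39 sites. Among the 29 sites in all 4 series, examples picked after their values were seen went in different directions. At 8318537 the times were 14.9, 2.83, 0.451 and 0.267, longer in both sarkosyl series, and at 8320911 they were 0.978, 1.54, 5.29 and 6.76, longer in both sarkosyl-free series. At 8317259 they were 3.25, 1.93, 3.24 and 1.57, and the buffers overlapped.

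**Figure D2:**
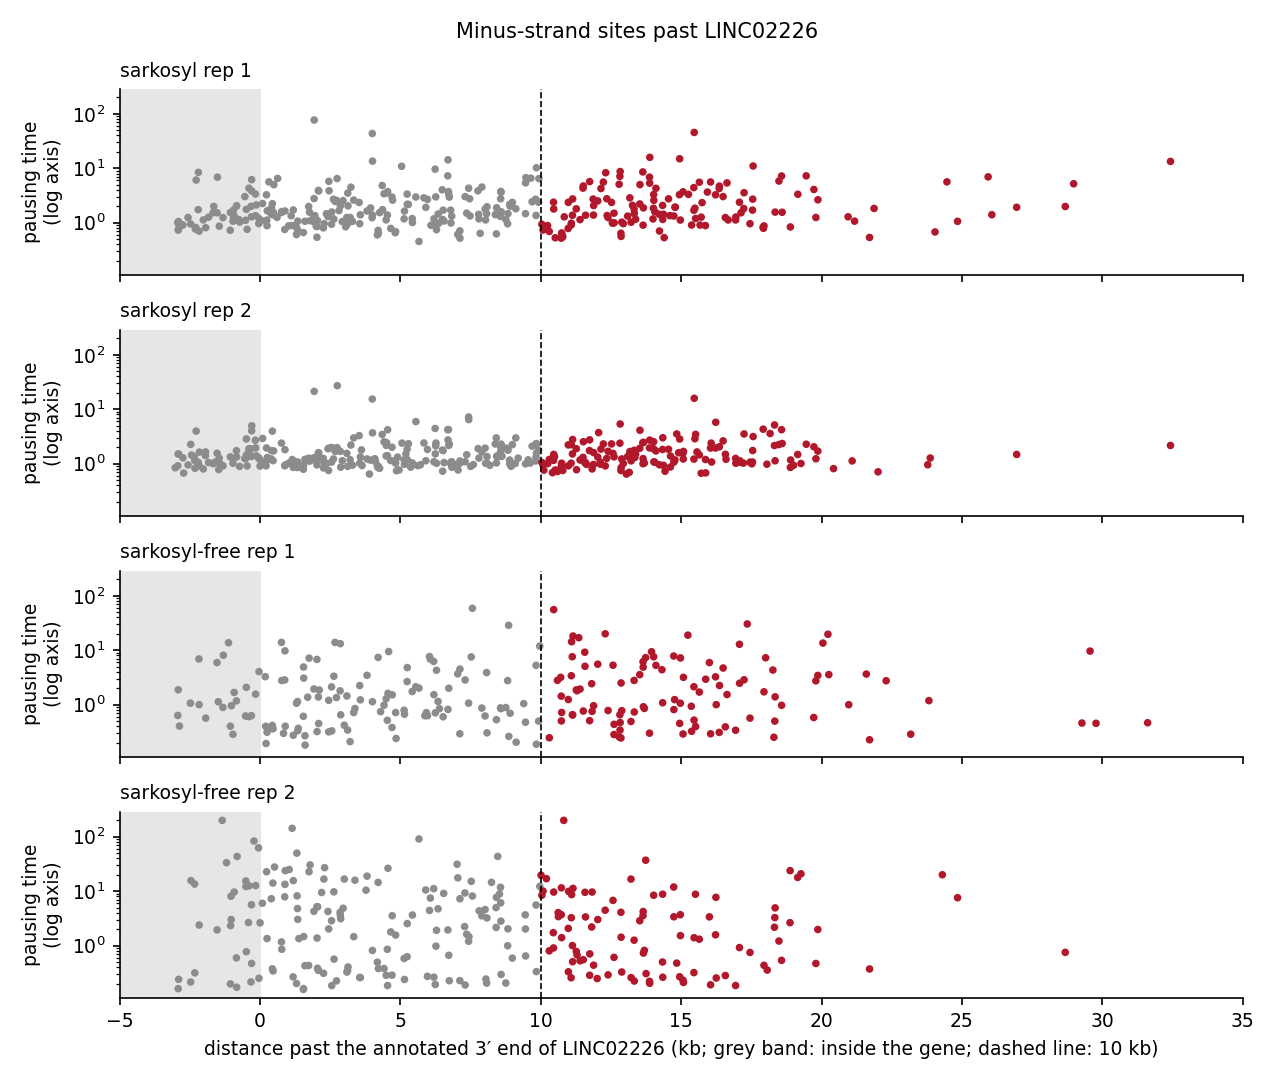
Pausing time (y axis, log scale, deposited unit) of minus-strand sites against distance past the annotated 3′ end of LINC02226 (x axis, kb), 1 panel per series, with distal sites in red and sites within the distance rule in grey. Sites continue from inside the gene's last part across the limit, and few lie beyond 20 kb (7, 5, 9 and 3 from there to 25 kb).

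Other regions with many sites and sites in all 4 series were shorter. On chromosome 20, 39 minus-strand sites lay at 30511954 to 30514454, inside the RefSeq pseudogene LOC110467526 (30511936 to 30514514); the nearest GENCODE gene, an rRNA gene of the RF00002 family, was 26878 bp away. Their median times were 1.87, 1.25, 0.842 and 1.74, and the uncertainty over shared reads in this pseudogene holds for them too. On chromosome 12, 25 minus-strand sites lay at 127165900 to 127166413, inside the RefSeq long non-coding RNA gene LOC105370062, with medians of 3.97, 1.52, 5.81 and 1.76. On chromosome 13, 25 sites (24 on the minus strand) lay within 209 bp at 109424126 to 109424334. No RefSeq gene lay within 300 bp of them and the nearest GENCODE gene, LINC00399, was 22485 bp away. Their medians were 1.32, 1.10, 2.94 and 0.820. Sites 4 bp apart differed there: 109424139 had 0.881, 1.05, 0.513 and 0.233, and 109424143 had 16.1, 5.15, 0.794 and 0.417.

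The next regions in the order held tRNA genes. On chromosome 16, 22 sites at 57299978 to 57300519 covered the tRNA-Leu genes TRL-CAG2-1 and TRL-CAG2-2, 15291 bp from PLLP. Their medians were 0.547, 0.872, 0.303 and 0.182. On chromosome 11, 16 sites at 59550432 to 59551065 lay around the tRNA-Val genes TRV-TAC1-1 and TRV-TAC2-1, with medians of 1.35, 0.858, 0.460 and 2.31. On chromosome 13, 16 sites at 94548860 to 94550198 surrounded TRF-GAA1-5, and RefSeq places the start of DCT, a melanin synthesis gene, beside it. Their medians were 0.805, 3.02, 0.251 and 4.35.

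Over all tRNA genes, 85 of 439 RefSeq positions on the autosomes had a distal site within 300 bp, 53 of them in all 4 series, and 47 were on chromosome 6. Sites inside the genes had short times: the medians were 0.545, 0.784, 0.264 and 0.392, from 74, 53, 146 and 51 sites. From 1 to 50 bp outside, the medians were 1.75, 1.35, 1.05 and 7.75, from 69, 48, 55 and 69 sites. From 51 to 300 bp they were 1.76, 1.40, 0.410 and 3.34. On the log2 scale the median inside minus that of all flanking sites was -1.69, -0.79, -1.44 and -3.77 (mean -1.92 ± 1.29, SD, n = 4). Without sarkosyl-free replicate 2 the mean was -1.31. The spread within the genes was narrow with sarkosyl, with quartiles of 0.497 and 0.649 in replicate 1 and of 0.703 and 0.918 in replicate 2. Without sarkosyl the quartiles were 0.203 and 0.682 in replicate 1 and 0.215 and 3.82 in replicate 2. On the log2 scale the quartiles lay 0.386, 0.386, 1.75 and 4.14 apart, so the spread was widest in sarkosyl-free replicate 2.

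The tRNA genes closer to annotated genes, outside the distance rule, gave similar figures. Medians inside them were 0.581, 0.765, 0.323 and 0.358, and in their flanks 1.40, 1.17, 0.991 and 6.64. Sites inside were shorter in all 4 series there as well. The strand of the tRNA genes is not in the gene table used, so sense and antisense sites were not separated.

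**Figure D3:**
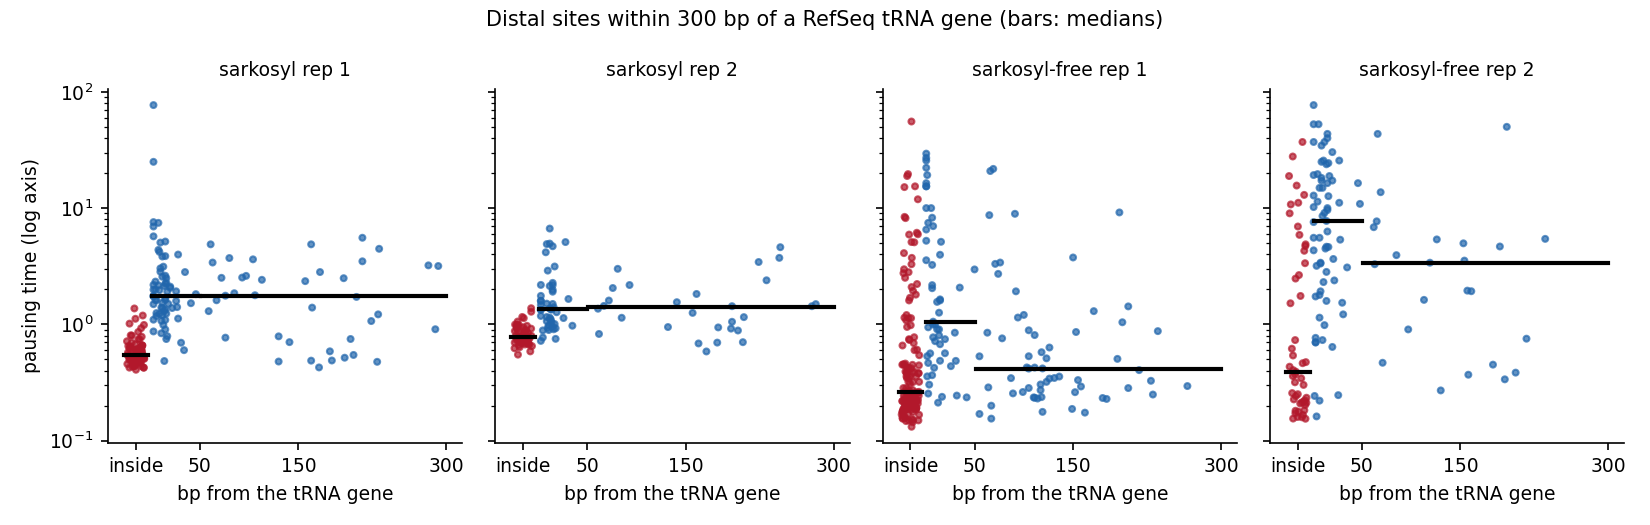
Pausing time (y axis, log scale, deposited unit) of distal sites against distance from the nearest RefSeq tRNA gene (x axis, bp; points inside the gene spread sideways for legibility), 1 panel per series, with black bars at the medians of inside, 1 to 50 bp and 51 to 300 bp. Medians inside are 0.545, 0.784, 0.264 and 0.392, below those from 1 to 50 bp in each series.

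Distal sites as a whole had shorter pausing times than other autosomal sites in each of the 4 series. Their median time was 1.27, 1.18, 1.27 and 3.37, against 1.52, 1.36, 2.23 and 8.26. Sarkosyl-free replicate 2 was the highest in both classes. The difference of median log2 time was -0.26 and -0.20 in the sarkosyl series, a mean of -0.23 ± 0.04 (SD, n = 2). It was -0.82 and -1.30 in the sarkosyl-free series, a mean of -1.06 ± 0.34 (SD, n = 2). Over the 4 series the mean was -0.64 ± 0.52 (SD, n = 4), with p = 0.12 in the two-sided exact sign-flip permutation test, the smallest it can give. Without sarkosyl-free replicate 2 the mean was -0.43. Limiting both classes to sites whose upper quartile of the rate was at most 3 times the lower brought the mean to -0.23. The remaining distal sites, away from tRNA genes and the stretch, differed from the sites outside the rule by -0.28, -0.19, -0.36 and -1.13, in the same direction. Their mean difference was -0.49, and -0.28 without sarkosyl-free replicate 2.

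Distal sites were also compared with the parts of the tables most like them, and their median times were shorter in each series, though not in sarkosyl-free replicate 1 under the settings given after the values. Against sites in lincRNA genes on the same strand the differences were -0.26, -0.10, -0.36 and -1.01 (mean -0.44 ± 0.40, SD, n = 4, exact permutation p = 0.12). Without sarkosyl-free replicate 2 the mean was -0.24. With tRNA sites and the stretch left out, sarkosyl-free replicate 1 came to 0.02, and over distal sites that were also far from RefSeq genes it came to 0.24, longer than the lincRNA sites. Against deep intron sites the differences were -0.40, -0.35, -0.91 and -1.60 (mean -0.82 ± 0.58, SD, n = 4, exact permutation p = 0.12). Without sarkosyl-free replicate 2 that mean was -0.56. Deep intron sites had medians of 1.67, 1.51, 2.38 and 10.2, longer in every series than those of the distal, lincRNA and other sites. With the same limit on the quartiles the means were -0.22 against lincRNA sites and -0.27 against deep intron sites.

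**Figure D4:**
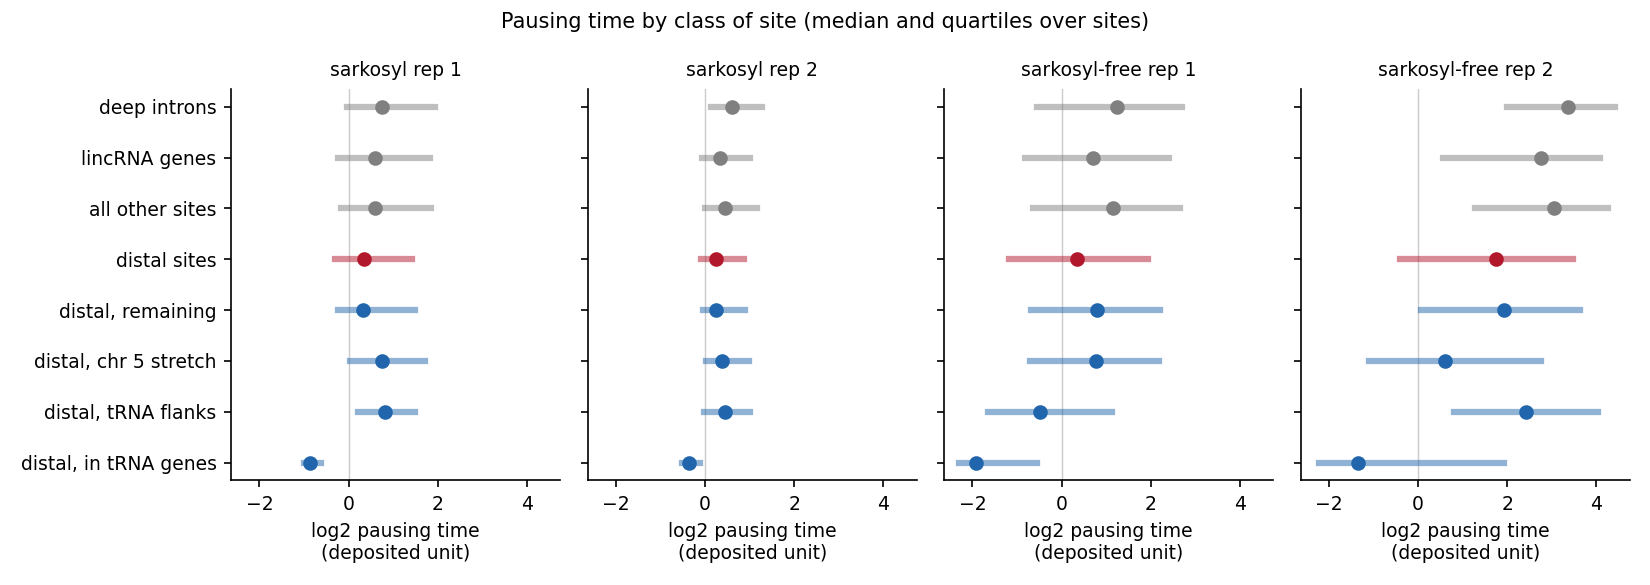
Median (dot) and quartiles (bar) of log2 pausing time (x axis, deposited unit) over sites for 8 classes (rows), 1 panel per series; grey rows are comparison classes, red all distal sites, blue their parts. Distal medians are 0.34, 0.24, 0.34 and 1.75, below those of all other sites (0.60, 0.44, 1.16 and 3.05).

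The share of sites that were distal was 2.02% and 1.77% in the sarkosyl series, a mean of 1.90% ± 0.18 (SD, n = 2). It was 1.94% and 1.97% in the sarkosyl-free series, a mean of 1.95% ± 0.02 (SD, n = 2). The difference of -0.06 percentage points had p = 1 in a two-sided exact permutation test. Its sign turned to 0.07 without sarkosyl replicate 2, and with 2 series against 2 no value below 0.33 is possible.

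The levels of distal pausing times overlapped between the buffers, but not under several other choices of sites. The median log2 times were 0.34 and 0.24 in the sarkosyl series, a mean of 0.29 ± 0.07 (SD, n = 2). The sarkosyl-free values were 0.34 and 1.75, a mean of 1.05 ± 0.999 (SD, n = 2). Sarkosyl replicate 1 lay just above sarkosyl-free replicate 1, so the groups overlapped (p = 0.667, exact permutation test, two-sided). The difference of -0.75 came to -0.05 without sarkosyl-free replicate 2. Both sarkosyl series were lower than both sarkosyl-free series over sites more than 5000 bp (-0.95) or 50000 bp (-1.42) from genes, over distal sites listed in all 4 series (-0.36), and over distal sites whose upper quartile of the rate was at most 3 times the lower (-2.94). In each of these 4 choices the exact permutation p was 0.33, the smallest that 2 series against 2 can give. The quartile filter is not independent of the time. Distal sites inside tRNA genes, with the shorter times, had median quartile ratios of 2.12, 2.55, 3.41 and 3.25. Those in the flanks had 2.66, 3.24, 3.87 and 2.37, so the order turned in sarkosyl-free replicate 2. How much of the -2.94 comes from this selection was not tested. Described without a test, both sarkosyl series were also lower without tRNA sites (-0.93), without the stretch (-0.84), without both (-1.07) and away from RefSeq genes (-1.02). Without the stretch the margin was small, 0.283 in sarkosyl replicate 1 against 0.292 in sarkosyl-free replicate 1. Sarkosyl-free replicate 2 had 1.88 there.

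Single sites were compared between buffers with limma over the 2967 sites listed in all 4 series, of which 142 were distal. Benjamini-Hochberg adjustment left 0 of 2967 sites (0%) under 0.05, and the smallest adjusted p was 0.155. With 2 series per buffer the fit can miss large differences, so this count does not show that none exist. At an unadjusted p under 0.05 there were 34 of the 142 distal sites (23.9%), 18 longer and 16 shorter with sarkosyl, against 23.2% of all sites tested, so the distal share was near the background. Among the classes, the median centred difference, sarkosyl minus sarkosyl-free, was 0.75 over the 29 stretch sites, 1.12 over the 26 sites near tRNA genes, and -0.73 over the 87 remaining sites, beside 0.23 over the 2825 shared sites that were not distal.

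The 3 distal sites with the smallest unadjusted p were all shorter with sarkosyl, and in each the groups did not overlap. At chromosome 8 position 110369497 (plus strand), the sarkosyl series had 0.822 and 0.664 and the sarkosyl-free series 23.3 and 40.0, and the fitted log2 difference was -5.23 (SE 0.74). The fit centred each series on its median first, so it is not the difference of the printed times. At chromosome 7 position 115396770 (minus strand), the values were 0.762 and 1.01 against 13.0 and 9.71, with a fitted difference of -3.54 (SE 0.73). At chromosome 4 position 162421454 (minus strand), they were 1.02 and 0.735 against 12.3 and 90.9, with a fitted difference of -5.14 (SE 1.09). The adjusted p in limma was 0.155 at all 3 sites.

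Divergent pairs were opposite-strand sites of a series within 500 bp, with the minus-strand site at the lower coordinate. Distal sites were in such pairs less often than other sites in each series: 7.53%, 6.66%, 5.40% and 4.31% against 17.6%, 11.3%, 9.42% and 6.53%. The difference was -10.1, -4.62, -4.02 and -2.21 percentage points (mean -5.23 ± 3.39, SD, n = 4, exact sign-flip permutation p = 0.12, two-sided). With pairs limited to 200 bp the mean came to -0.105 points. Sites in lincRNA genes had shares of 18.1%, 10.8%, 9.39% and 8.37%, above the distal ones, and deep intron sites 1.46%, 0.778%, 0.740% and 0.701%, below them.

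Among pairs within 500 bp, the order of the strands depended on where the pair lay. Away from tRNA genes, the series held 34, 17, 13 and 5 divergent pairs and 0, 3, 8 and 0 convergent ones, in which the plus-strand site has the lower coordinate. Near tRNA genes they held 13, 16, 46 and 15 divergent and 49, 26, 60 and 34 convergent pairs. Within 500 bp, divergent order was thus the more frequent away from tRNA genes in all 4 series and the less frequent near them in all 4. The order near tRNA genes depended on this window. Among pairs within 200 bp, divergent order was the less frequent near them in sarkosyl replicate 1 only, and the more frequent in the other series. Away from tRNA genes it stayed the more frequent in all 4 series at 200 bp. A site can enter several pairs, and neighbouring tRNA genes add pairs between genes, so the counts of pairs are not independent. Some pairs away from tRNA genes lay at the near-identical SNAR copies, where the assignment of reads is uncertain. Within 1000 bp of SNAR genes, 8, 8, 3 and 0 distal sites were in divergent pairs. Among all remaining distal sites 53, 30, 23 and 9 were. As a share of sites, divergent minus convergent among the remaining distal sites was 8.65, 4.58, 1.07 and 1.53 percentage points.

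**Figure D5:**
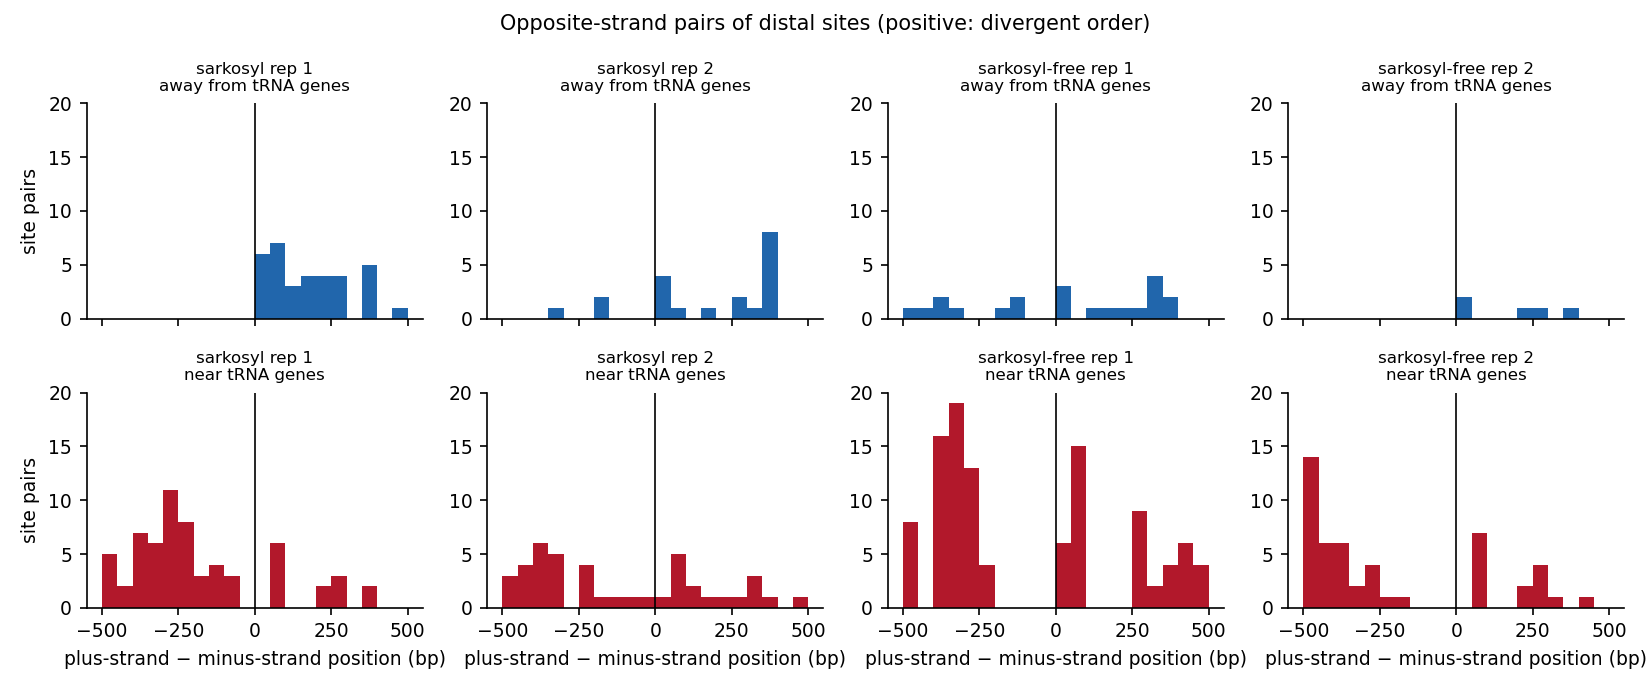
Distance between opposite-strand distal sites within 500 bp (x axis, plus-strand minus minus-strand position in bp; y axis, number of site pairs; 50 bp bins), by series (columns) and by place (rows). Away from tRNA genes most pairs are to the right of 0, the divergent order (34 of 34 in sarkosyl replicate 1), and near tRNA genes most are to the left.

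Over the series, 136 distinct divergent pairs were found, 115 of them in 1 series, 19 in 2, 2 in 3 and 0 in all 4. The 60 pairs away from tRNA genes lay a median of 204 bp apart (quartiles 77.5 and 330.5 bp) and fell in 29 loci. Pairs recurred in all 4 series at 1 locus and in 3 series at 1 more. The locus in all 4 series, chr4:162421446-162421498, held 5 sites, was 97539 bp from the nearest GENCODE gene, the pseudogene MTHFD2P4, and was 36002 bp from the nearest RefSeq gene. Its minus-strand site 162421454, named above, is the one with long times in the sarkosyl-free series. The plus-strand partner at 162421497 had 0.435 and 0.917 with sarkosyl, and the partner 1 bp on had 0.603 and 0.279 without it. The minus-strand site was therefore much the longer of the pair in both sarkosyl-free series. The locus in 3 series, chr1:215499798-215499831, lay 67561 bp from KCTD3. Its plus-strand site 215499830 had 5.65 and 1.68 with sarkosyl, and the minus-strand sites 215499808 and 215499798 had 0.740 and 1.41, and 0.987 and 0.787.

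The pairs found at both positions in 3 series were at tRNA genes of chromosome 6. At the tRNA-Ser gene TRS-TGA2-1, the minus-strand site 27545677 had 3.83, 6.67 and 1.56 in sarkosyl replicates 1 and 2 and sarkosyl-free replicate 1. Its plus-strand partner 27545759, inside the gene, had 0.592, 0.980 and 0.213, shorter in each of the 3. At the tRNA-Gln gene TRQ-TTG3-3, site 27795858 had 2.18, 1.18 and 0.702 in sarkosyl replicates 1 and 2 and sarkosyl-free replicate 2, and its partner 27795946 had 0.484, 1.03 and 1.59. There the plus-strand site was the shorter with sarkosyl and the longer without it.

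Distal sites in divergent pairs were compared with distal sites that had no opposite-strand site within 500 bp. The difference of median log2 time was 0.29 and -0.01 in the sarkosyl series, a mean of 0.14 ± 0.21 (SD, n = 2). It was -0.88 and -1.10 in the sarkosyl-free series, a mean of -0.99 ± 0.16 (SD, n = 2). The mean over the series was -0.43 ± 0.67 (SD, n = 4), within the spread between series, with p = 0.375 in the two-sided exact sign-flip permutation test. Its sign turned to 0.01 with sites whose upper quartile of the rate was at most 3 times the lower. Over 50000 bp from genes it turned to 0.06. Without sarkosyl-free replicate 2 it was -0.20.

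Distal sites recurred at the same position in the other replicate. The sarkosyl series shared 471 of them, 50.7% of replicate 1 and 59.2% of replicate 2, and the sarkosyl-free series 381, 31.6% and 49.8%. Other sites had 35.6% and 36.3%, and 20.1% and 32.2%, lower in every list. All 4 series held 5.85% of distinct distal sites and 1.72% of other sites. Across the shared distal sites of replicates, Spearman's rho of the times was 0.705 with sarkosyl (471 sites) and 0.566 without it (381 sites). These points share a library and often a region, so the values describe the tables. Across buffers rho for distal sites ran from 3.3e-05 to 0.131 over the 4 pairs of series. It was 0.372 to 0.553 for sites near tRNA genes (38 to 64 sites a pair), which hold both the short times inside the genes and the longer ones in their flanks, and -0.165 to -0.0753 for the remaining sites (143 to 183 sites a pair).

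The shortest distal time of every series was inside a tRNA gene. It was 0.407 in sarkosyl replicate 1, on chromosome 6 at 27670591 (minus strand) in the tRNA-Arg gene TRR-ACG2-4, and 0.549 in sarkosyl replicate 2, on chromosome 16 at 14285951 (plus strand) in the tRNA-Thr gene TRT-CGT2-1. Without sarkosyl it was 0.132 on chromosome 7 at 149375786 (minus strand) in the tRNA-Cys gene TRC-GCA18-1, and 0.154 on chromosome 16 at 57300519 (minus strand) in TRL-CAG2-2. The longest time of sarkosyl replicate 1 was 90.9 on chromosome 20 at 30514124 (minus strand). It lay in the pseudogene region described above, where the assignment of shared reads is uncertain. Sarkosyl replicate 2 reached 25.6 on chromosome 2 at 86423804 (minus strand), 16843 bp from KDM3A, a histone demethylase gene. In sarkosyl-free replicate 2 it was 200 in the chromosome 5 stretch at 8322665, and in sarkosyl-free replicate 1 the longest, 55.6, was tied between 3 sites, 1 of them inside a tRNA gene. Rates are rounded to 3 decimals, so such long times take few distinct values.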

How the data were processed

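Per the submitters' processing notes, cutadapt 1.14, HISAT2 2.1.0, SAMtools and bedtools were used with build hg38; the rule for calling sites and the fitted model are not given in the sources used here. Per the file headers, each deposited row gives a position, a strand, quartiles and a median of a rate, and a pausing time; these are scores on a scale the authors do not state. In all 204137 rows the time multiplied by the deposited median of the rate was within 1e-06 of 1. All 4 tables were used, and 0 value columns were unmapped.

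Times were analysed as log2 values with Python 3.11.15, numpy 2.4.6, pandas 2.3.3 and scipy 1.17.1, and with limma 3.58.1 in R 4.3.3 after centring each series on its median. Figures used matplotlib 3.10.9. Distances were taken to GENCODE release 29 genes; names and tRNA genes came from the RefSeq table of GRCh38.p14, where 99.99% of 17722 coding genes matched by symbol overlapped their GENCODE entry. Differences within series were tested by sign flips over the 4 series and levels by permuting series. Sites are not replicates, and p-values measure only the spread between these series. The limma code was first tested on simulated data.

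The sites named singly were those in all 4 series with the smallest limma p, the regions in all 4 series with the most sites, the divergent pairs in most series, and the extremes; the 7 regions include a tie for the last place. Sites in the printed stretches, and those of the other regions given with times, were picked after their values were seen. Members and lists were chosen with earlier results of these data known. Alternatives covered distance, windows, the quartile ratio of the rate, summary, scaling, a replicate block and left-out series. The planned genome-wide reading of sequence around sites was not run.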

Additional observations from a re-analysis of the deposited data

Results flagged for a closer look

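The pausing time of distal sites in divergent pairs, relative to unpaired distal sites, had opposite signs in the buffers under each of 4 settings chosen after seeing the data. The difference between buffers was not tested. Without sites within 300 bp of tRNA genes and without the chromosome 5 stretch, both sarkosyl series were positive (0.34 and 0.06 on the log2 scale) and both sarkosyl-free series negative (-0.21 and -1.51), so the buffers differed by 1.06. Without the tRNA sites alone the series had 0.28, 0.03, -0.20 and -1.35, and the buffers differed by 0.93. Without the stretch alone they had 0.36, 0.0017, -0.86 and -1.26, and the buffers differed by 1.24. In both settings the positive sign of sarkosyl replicate 2 was marginal. For sites also over 10000 bp from RefSeq genes the signs were the other way round, negative with sarkosyl (-0.08 and -0.42) and positive otherwise (0.37 and 1.37), so the buffers differed by -1.12. Few sites carry the values without both sets: 53, 30, 23 and 9 remaining distal sites were in divergent pairs. The counts for the other settings are not given here.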

How the results depend on the processing

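Over 14 results, 138 alternatives were computed. Of these 120 kept the sign and stayed within the spread between series (counts within 1.5 times), 8 went beyond it and 10 reversed; the cause was not tested unless stated. The difference in clustered share (1.68 points) turned negative over 50000 bp from genes (-15.7), with a window of 5000 bp (-15.1), without tRNA sites (-5.24), without the stretch (-5.31), without both (-15.6) and away from RefSeq genes (-2.82), and was 13.1 with a window of 50 bp. The difference in divergent share (-5.23) was -0.105 with a window of 200 bp. The time of paired minus unpaired distal sites (-0.43) was 0.0577 over 50000 bp, 0.0130 for sites whose upper quartile of the rate was at most 3 times the lower, and 0.310 away from RefSeq genes. The same filter moved the buffer difference of distal times from -0.75 to -2.94, where the buffers no longer overlapped. This filter also selects on the time itself, in a way that differed between series. Matching within 5 bp raised the larger replicate share, averaged over buffers, from 54.5% to 66.0%, by construction. Settings that left out tRNA sites or the stretch, or used RefSeq genes, were chosen after seeing the data.

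Leaving out each series in turn gave -0.185 to 0.0679 for the distal share (positive without sarkosyl replicate 2), -0.79 to -0.43 for distal minus other times, -1.46 to -0.05 for the buffer difference, and 0.56 to 2.45 points for the clustered share. With 4 series this usually stays within their SD and says little about stability. The limma count of distal sites past the threshold was 0 in the fit reported and without centring, 10 after quantile normalization, and 0 to 72 when a series was left out: 72 without sarkosyl-free replicate 1, 25 without sarkosyl-free replicate 2 and 0 without sarkosyl replicate 1 or without sarkosyl replicate 2. Leaving out a series moved the count in some fits. In those fits the lone series of a buffer is assumed to vary like the other buffer, so their counts are not given. With a replicate block limma called 9 of 142 distal sites, beside 161 of all 2967 tested. The labels do not say whether the replicate numbers pair the series of the 2 buffers. The buffers' differences between replicates had a correlation of 0.0134 over the shared sites (-0.0261 across distal ones). This cannot settle the pairing, since a correlation across sites takes no account of a shift common to all sites. The replicate block left the buffer difference of distal times at -0.75. Read depth is unknown, so what it limits could not be worked out.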
